A study of Rattus norvegicus with 8 samples.

Results

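H9C2 cells, an established line of rat heart myoblasts, were transduced either with a form of the nuclear receptor PPARalpha in which serine 280 is replaced by aspartate (S280D) or with yellow fluorescent protein alone (YFP). The comparison rests on 4 of the 8 libraries of the series, 2 of S280D and 2 of YFP, and covers every feature of the deposited count table. The receptor was expressed as a fusion with YFP, and every group carried its insert in the vector pDC316 for 2 days. The YFP cells therefore share the vector, the fluorescent protein and the transduction, but carry no added receptor. The remaining libraries, 2 with the unmutated receptor (WT) and 2 with alanine at residue 280 (S280A, labelled phospho-resistant), are used as points of reference. No ligand is named in the labels, the cells kept their own Ppara gene, and all libraries come from this 1 cell line. Whether the libraries of a group stem from different cultures is not stated in the labels, and the p-values therefore reflect the spread among these libraries alone, which may be technical.

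PPARalpha binds DNA together with a retinoid X receptor (RXR), at paired copies of a short half-site, and is activated by fatty acids and fibrates. In heart and liver it is known for switching on genes of fatty acid uptake and of mitochondrial and peroxisomal oxidation, and for damping inflammatory transcription driven by NF-kappaB. Aspartate carries a negative charge and is commonly placed at a serine to imitate its phosphorylated state, as the labels state for S280D.

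RNA was selected for poly(A), and strand-specific paired-end libraries were amplified for 15 PCR cycles. The YFP libraries held 17252523 and 19070170 exon reads, and the S280D libraries 39526013 and 21050137, the first being the deepest of the series. Reads after PCR without molecular identifiers are not independent molecules. Levels are given as CPM, the exon reads of a gene scaled to a common library size with edgeR's TMM factors. By the headers of the deposited table, both YFP libraries and S280D replicate 1 ran on sequencing lane 1 and S280D replicate 2 on lane 2, so lane is partly tied to group. Among markers of the cells this line could resemble, Tnnt2 of heart muscle stood at 172 and 265 CPM in YFP and 214 and 225 CPM in S280D, while Nkx2-5 had no read in any library except S280D replicate 2 (0.0911 CPM) and Myh6 and Myh7 were under 1 CPM in all 8. Skeletal myoblast markers summed to between 5.16 and 7.14 CPM and endothelial markers to between 1.23 and 2.06 CPM in the 4 libraries. Macrophage markers summed to between 20.3 and 25.6 CPM in the 4 libraries, nearly all of it Cd14, while Ptprc and Aif1 were at 0.

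The transduced gene was the first check of the labels. Ppara, on chromosome 7 at 126619195 to 126681752 (Rnor_6.0), had 74.4 and 59.5 CPM with YFP and 17911 and 17693 CPM with S280D. The groups were far apart, and the S280D replicates were close to each other. The log2 fold change (S280D minus YFP) was 8.06 ± 0.34 (SE), with an adjusted p of 7.03e-07 by edgeR's quasi-likelihood test with Benjamini-Hochberg adjustment over all genes tested. WT libraries held 12382 and 24134 CPM and S280A libraries 17400 and 13736 CPM, so the WT libraries lay on either side of the S280D values and both S280A libraries below them. Reads on the added coding sequence and on the cells' own transcript cannot be told apart in this gene.

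Of 32258 features, 12407 had enough reads to be tested, and 3815 of them (30.7%) differed between S280D and YFP at an adjusted p under 0.05, the threshold used for every call below. Higher in S280D were 2116 genes (17.1% of those tested) and lower were 1699 (13.7%). The increases were the larger changes: their median log2 fold change was 0.95, against -0.55 for the decreases, and 964 increases but 113 decreases reached a fold of 2. At a fold of 4 or more there were 120 increases and 19 decreases. Both S280D libraries lay above both YFP libraries for all 2116 genes called higher, and below for 1697 of 1699 called lower. That separation by itself was common, with 33.9% of all genes tested lying wholly above and 35.7% wholly below.

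The count rested heavily on single libraries. Without S280D replicate 1, 917 genes were called, and without YFP replicate 1, 1565. Leaving out S280D replicate 2 kept only lane 1 among the YFP and S280D libraries, while the WT and S280A libraries in that fit spanned both lanes. Without S280D replicate 1, the S280D library left was on lane 2 and both YFP libraries on lane 1. A fit with lane as a term gave 1654 calls, of which 1279 were higher. Every one of the 3815 genes kept its sign in each of these 4 fits. Because the groups lay wholly apart in nearly all of these genes, a sign could hardly turn when a library was left out. Of 172 genes named below and called, 72 passed in every alternative fit in which they were tested other than a required fold of 1.5, and 54 of these 72 were increases. Reads placed at a single site in the genome gave 3934 calls among 11832 genes (33.2%), and 3563 genes were called in the same direction on both kinds of read. The authors' deposited table of the same comparison called 3041 of the genes tested, of which 2982 were called here in the same direction and 0 in the opposite one.

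**Figure D1:**
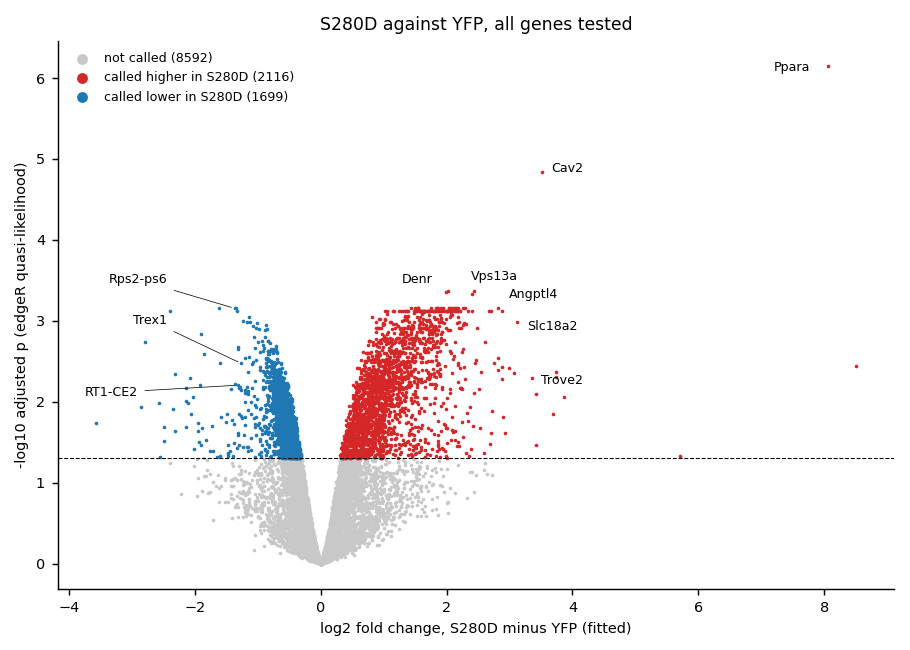
Each point is 1 of 12407 genes tested, with the fitted log2 fold change (S280D minus YFP) on the x axis and -log10 of the adjusted p on the y axis, and the dashed line marks an adjusted p of 0.05. Red points (2116) were higher in S280D and blue points (1699) lower; the right arm extends further than the left, and Ppara and Cav2 stand apart at the top.

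After Ppara, the increase with the smallest p was in Cav2, which encodes caveolin-2, a coat protein of the small membrane pits called caveolae. Cav2 (chromosome 4, 44573263 to 44580638, Rnor_6.0) had 7.61 and 7.31 CPM in YFP and 78.9 and 92.8 CPM in S280D, from 130, 143, 3262 and 2039 exon reads. Both S280D libraries were far above both YFP libraries. The log2 fold change was 3.52 ± 0.21 (SE), an 11.5-fold rise, with an adjusted p of 1.47e-05, and it stayed between 3.40 and 3.66 when any of the 8 libraries was left out. WT libraries reached 48.4 and 42.5 CPM and S280A libraries 23.0 and 14.5 CPM. S280D exceeded S280A by 2.19 on the log2 scale (adjusted p = 0.0016), whereas its difference of 0.92 from WT had an adjusted p of 0.21. Cav1, the partner caveolin, had 357 and 398 CPM in YFP against 417 and 405 CPM in S280D and was not called (0.12, adjusted p = 0.452).

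The 300 bases around the Cav2 start are shown because Cav2 had the smallest p after the receptor itself, and a half-site of the kind PPAR and RXR bind, AGGTCA, lies in them. The window covers 250 bases before and 50 after the start in RefSeq's annotation of GRCr8, chr4:46582431-46582730, plus strand, and the half-site at position -209 is in capitals.
Cav2: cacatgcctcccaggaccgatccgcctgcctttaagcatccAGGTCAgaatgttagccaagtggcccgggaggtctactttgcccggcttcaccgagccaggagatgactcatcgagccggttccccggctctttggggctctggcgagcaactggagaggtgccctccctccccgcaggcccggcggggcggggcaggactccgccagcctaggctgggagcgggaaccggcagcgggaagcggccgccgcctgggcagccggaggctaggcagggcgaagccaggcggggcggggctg
AGGTCA, searched on both strands, occurs in 11.3% of the 9018 promoters matched to tested genes, so its presence in 1 window is common. Paired half-sites with 1 base between them, AGGTCANAGGTCA or AGGNCANAGGNCA, were not found in the Cav2 window or in that of Angptl4. Promoters could be matched for 72.7% of genes tested, which is too few for a comparison between sets of genes.

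Of 40 genes long described as direct PPAR targets, 31 were tested, 10 rose (32.3%, beside 17.1% of all genes tested) and 3 fell (9.68%, beside 13.7%), and their median log2 fold change was 0.23 beside -0.02 for all genes tested. The members not tested for low counts included Pdk4, Fabp3, Ucp3, Cd36 and Plin5, targets known from heart and skeletal muscle. Without S280D replicate 1 the list counted 5 higher and 0 lower, without YFP replicate 1 it counted 7 and 2, and with lane as a term 7 and 1.

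Angptl4, a secreted inhibitor of lipoprotein lipase and among the best known PPAR targets, lies on chromosome 7 at 18627807 to 18634079 (Rnor_6.0). Its level was 3.34 and 1.99 CPM in YFP and 19.0 and 18.3 CPM in S280D, with no overlap. The log2 fold change was 2.81 ± 0.28 (SE; adjusted p = 7.02e-04), a 7.03-fold rise that stayed between 2.48 and 3.22 on the log2 scale when any library was left out. WT libraries had 7.60 and 9.65 CPM and S280A libraries 7.72 and 4.91 CPM. S280D was above S280A by 1.55 (adjusted p = 0.0023) and above WT by 1.11 (adjusted p = 0.30).

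Hsdl2, a peroxisomal dehydrogenase-like protein, went from 10.8 and 10.5 CPM to 22.2 and 26.8 CPM (1.20 ± 0.17, adjusted p = 0.00111). Cpt1b, the muscle form of the enzyme that loads fatty acids onto carnitine for entry into mitochondria, rose from 4.22 and 5.06 CPM to 9.36 and 10.3 CPM (1.08 ± 0.21, adjusted p = 0.00427). Acot2, a mitochondrial thioesterase that frees fatty acids from coenzyme A, rose from 39.5 and 46.8 CPM to 68.8 and 72.5 CPM (0.71 ± 0.13, adjusted p = 0.00311). These 3 genes were called in every fit in which they were tested, other than a required fold of 1.5.

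The remaining increases in the list were smaller or rested on 1 library. Cpt1a, the liver form of the carnitine enzyme, had 19.4 and 13.8 CPM in YFP and 30.1 and 29.1 CPM in S280D (0.84 ± 0.19, adjusted p = 0.00988, but 0.0658 without S280D replicate 1 and 0.051 after removal of exon-length trends). Acadl, which begins the oxidation of long-chain acyl-CoA, had 34.96 and 34.2 CPM in YFP and 53.7 and 49.3 CPM in S280D (adjusted p = 0.00716, but 0.0728 without S280D replicate 1). Etfdh, which passes electrons from fatty acid oxidation to the respiratory chain, had 6.91 and 8.43 CPM against 14.1 and 14.2 CPM (adjusted p = 0.0167). When YFP replicate 1 was left out its adjusted p was 0.103, and it was 0.0807 and 0.0535 with the first and the second S280D library left out. Pex11a, a factor of peroxisome division, and Acaa2, the last enzyme of mitochondrial beta-oxidation, passed with adjusted p of 0.0238 and 0.0459 and failed under each omission of a YFP or S280D library, except Acaa2 without YFP replicate 2.

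Members that fell included Mlycd, the decarboxylase that removes malonyl-CoA and so relieves the block on carnitine loading. Mlycd stood at 25.9 and 25.4 CPM in YFP and 15.4 and 16.0 CPM in S280D (-0.71 ± 0.15, adjusted p = 0.00598, but 0.07 without S280D replicate 1). Slc25a20, the carnitine carrier of the inner mitochondrial membrane, had 55.6 and 62.8 CPM against 41.9 and 41.4 CPM (-0.51 ± 0.13, adjusted p = 0.0127), and its call was lost without either S280D library (0.105 and 0.06) and without YFP replicate 2 (0.0513). Acaa1a, a peroxisomal thiolase, had 14.3 and 14.2 CPM against 7.62 and 9.06 CPM (-0.78 ± 0.20, adjusted p = 0.0167), lost without S280D replicate 1 (0.169) or YFP replicate 1 (0.0655). Genes of the list that were not called included Vldlr, the VLDL receptor, at 888 and 933 CPM in YFP and 1018 and 999 CPM in S280D (0.15, adjusted p = 0.305). Plin2, a lipid droplet coat protein, had a fitted difference of 0.18 (82.6 and 81.8 CPM against 90.9 and 95.9 CPM).

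**Figure D2:**
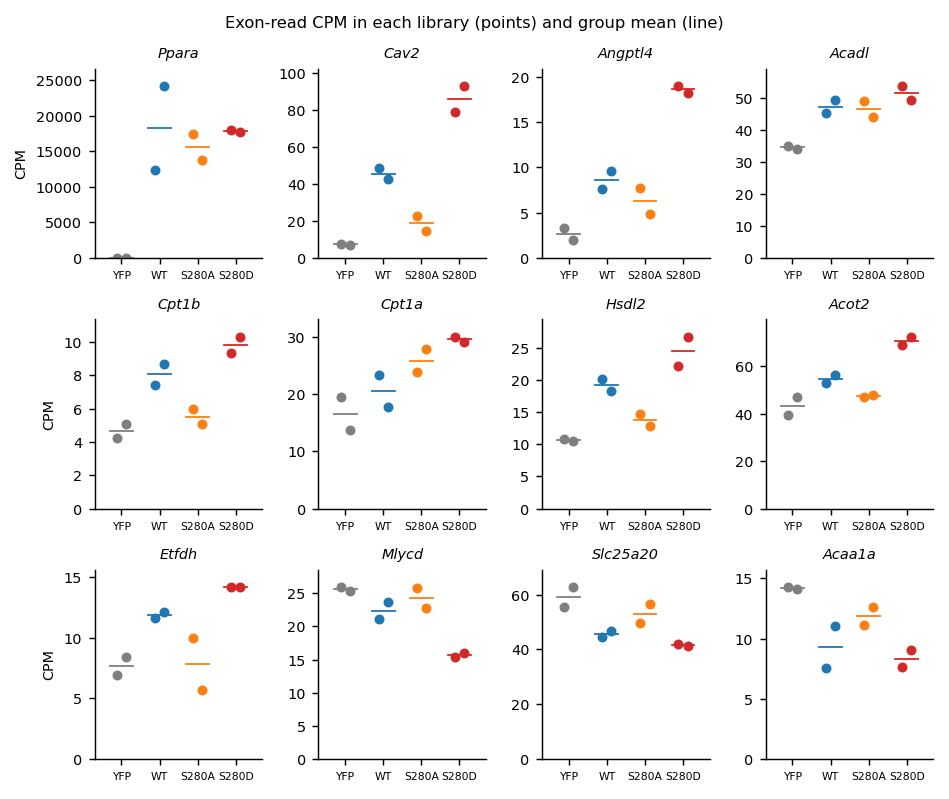
Points are the CPM of the 2 libraries of each group (y axis, starting at 0), lines the group means, for Ppara, Cav2 and 10 described PPAR targets. Cav2, Angptl4 and Acot2 are highest in the S280D libraries, while Mlycd, Slc25a20 and Acaa1a are lower there than in YFP.

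The partners of the receptor were measured next. Rxra, the main RXR of heart, had 30.9 and 28.5 CPM in YFP and 19.5 and 21.4 CPM in S280D (-0.54 ± 0.14, adjusted p = 0.0142), and Rxrb had 25.9 and 23.2 CPM against 15.4 and 18.2 CPM (-0.55 ± 0.18, adjusted p = 0.0418). Neither call held without S280D replicate 1 (0.164 and 0.298) or without YFP replicate 1 (0.0765 and 0.176). Ppard, the PPAR form found in most tissues, was not called (-0.28, adjusted p = 0.287), and Pparg and Rxrg had too few reads.

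Coactivators and corepressors, the proteins that PPARalpha recruits to chromatin, had 17 tested members. Of these, 8 rose (47.1%, beside 17.1% of all genes tested) and none fell. Their median of 0.41 became -0.08 when library-specific trends with exon length were removed (5 higher, 2 lower). In that fit all 12407 genes tested had a median of -0.13, with 1784 higher and 2579 lower. List counts after removal of exon-length trends are to be read beside these. With a robust curve, less sensitive to outlying genes, all genes had a median of -0.06, with 1971 higher and 1980 lower. Nrip1, a corepressor of metabolic nuclear receptors, rose from 20.2 and 31.4 CPM to 63.3 and 52.9 CPM (1.17 ± 0.20, adjusted p = 0.00249). Sirt1, a deacetylase, had 5.56 and 5.26 CPM against 15.3 and 10.1 CPM (1.24 ± 0.29, adjusted p = 0.0104, but 0.109 without S280D replicate 1). The acetyltransferase Ep300 had 24.1 and 25.8 CPM against 40.4 and 37.3 CPM (0.64, adjusted p = 0.00677, but 0.0662 without S280D replicate 1). The list counted 1 higher without S280D replicate 1, and 3 without YFP replicate 1 or with lane as a term.

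Kinases of the GSK-3 and Akt branch, which act on many serines in metabolic regulators, had 16 members tested, with 7 higher (43.8%) and 1 lower (6.25%). Their median was 0.23, and after removal of exon-length trends the counts were 6 and 4 with a median of 0.05. Gsk3b, which encodes GSK-3 beta, rose from 154 and 151 CPM to 248 and 240 CPM (0.68 ± 0.11, adjusted p = 0.00245), while Gsk3a, at 88.8 and 76.5 CPM against 65.4 and 65.5 CPM, was not called (-0.34, adjusted p = 0.0742). Rictor, the defining subunit of mTOR complex 2, went from 6.50 and 8.48 CPM to 29.9 and 22.4 CPM (1.80 ± 0.23, adjusted p = 8.94e-04). Pik3ca, the catalytic PI3-kinase, rose by 1.32 ± 0.19 (adjusted p = 0.00139). Akt1, a kinase activated downstream of it, was the 1 member that fell (-0.46, adjusted p = 0.0224). The counts were 4 higher and 0 lower without S280D replicate 1, 5 and 0 without YFP replicate 1, and 7 and 3 without YFP replicate 2.

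Genes of fatty acid uptake and lipoprotein receptors, 19 tested, had 3 higher and 3 lower (15.8% each, beside 17.1% and 13.7% of all genes tested). Their median of 0.14 became -0.03 after removal of exon-length trends. Besides Cav2, Acsl4, which activates polyunsaturated fatty acids, rose from 25.2 and 33.5 CPM to 89.3 and 62.8 CPM (1.37 ± 0.20, adjusted p = 0.00123). Acsl3, an acyl-CoA synthetase of lipid droplets, had 24.5 and 38.6 CPM against 56.8 and 50.9 CPM (0.77, adjusted p = 0.0143), lost without YFP replicate 1 (0.0944) or S280D replicate 1 (0.0883). Of the decreases, Lmf1 (-0.65), a maturation factor of lipases, and Slc27a4 (-0.52), a fatty acid transporter, lost their calls without S280D replicate 1 (0.146 and 0.185). No decrease of the list was called without YFP replicate 1 or without S280D replicate 2.

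Mitochondrial fatty acid oxidation as a whole had 6 higher (27.3%) and 4 lower (18.2%) among 22 tested, with a median of -0.11. Beyond the genes above, Etfa rose (0.54, adjusted p = 0.0351) and its partner subunit Etfb fell (-0.43, adjusted p = 0.0302). Both carry electrons from acyl-CoA dehydrogenases, and both calls were lost without S280D replicate 1 (0.228 and 0.226) and without YFP replicate 1 (0.205 and 0.083). This list counted 1 higher and 0 lower without S280D replicate 1. Peroxisomal genes had 4 higher and 3 lower of 19 (21.1% and 15.8%, near the shares of all genes tested). After removal of exon-length trends the counts were 4 and 5, and fewer of each were called without S280D replicate 1. Cat, catalase, had 19.1 and 21.97 CPM against 54.6 and 34.8 CPM (1.12 ± 0.23, adjusted p = 0.00547, but 0.0577 without S280D replicate 1). Pex5, the import receptor for peroxisomal proteins, had 8.32 and 27.2 CPM in YFP and 4.67 and 3.32 CPM in S280D (-2.13 ± 0.46, adjusted p = 0.00682), a wide spread within YFP, and 0.319% of its reads were placed at a single site.

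In the storage and synthesis of lipids, the shares called lower lay near the 13.7% of all genes tested. The shares called higher were 0%, 7.69% and 8.33% for triglyceride, cholesterol and fatty acid synthesis genes, under the 17.1% of all genes tested. The medians of these lists were -0.17, -0.24 and -0.25 in the same order, beside -0.02 for all genes tested. Triglyceride and lipid droplet genes had 0 higher and 3 lower of 21 tested (14.3% lower), the decreases being Agpat1 (-0.62), Agpat2 (-0.87) and Bscl2 (-0.56), of which none was called without S280D replicate 1 (0.124, 0.155 and 0.257). Cholesterol synthesis genes had 2 higher and 4 lower of 26 (15.4% lower), and 1 and 7 after removal of exon-length trends. Idi1, an isomerase of the pathway, rose from 3.34 and 5.16 CPM to 14.2 and 13.7 CPM (1.70 ± 0.33, adjusted p = 0.00439), while Srebf2, the regulator of the pathway, had 129.5 and 134.4 CPM against 102.6 and 100.9 CPM (-0.37, adjusted p = 0.0232, but 0.168 without S280D replicate 1). Fatty acid synthesis genes had 1 higher and 2 lower of 12 (16.7% lower), but 0 and 7 after removal of exon-length trends and 0 and 5 with the robust curve. Srebf1, a regulator of lipid synthesis, was among the decreases (-0.52, adjusted p = 0.0121, but 0.17 without S280D replicate 1).

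Of 21 glycolytic genes tested, 0 rose (beside 17.1% of all genes tested) and 6 fell (28.6%, beside 13.7%), with a median of -0.37. Percentages higher and lower in the lists that follow are to be read beside the same 17.1% and 13.7%. Pgk1, phosphoglycerate kinase, fell from 308 and 285 CPM to 190.0 and 180.1 CPM (-0.68 ± 0.13, adjusted p = 0.0048) and held in every fit in which it was tested, other than a required fold of 1.5. Tpi1, triose phosphate isomerase, had 146 and 130 CPM against 67.5 and 54.4 CPM (-1.18), but 1.23% of its reads were placed at a single site and on those the adjusted p was 0.142. The list counted 2 lower without S280D replicate 1 and 3 lower without YFP replicate 1 or S280D replicate 2, but 10 lower without YFP replicate 2 and 12 after removal of exon-length trends. Pyruvate dehydrogenase and TCA cycle genes had 2 higher (6.9%) and 8 lower (27.6%) of 29. Mdh2, mitochondrial malate dehydrogenase, fell from 308 and 277 CPM to 164 and 168 CPM (-0.82 ± 0.14, adjusted p = 0.00308), and Dld, the shared dihydrolipoamide dehydrogenase, rose from 122 and 155 CPM to 314 and 242 CPM (1.00 ± 0.18, adjusted p = 0.00358). The TCA list counted 1 of each without S280D replicate 1.

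The respiratory chain split by the genome that encodes its subunits. All 11 mitochondrially encoded transcripts tested rose, with a median of 1.40 (1.46 after removal of exon-length trends), and 10 or 11 of them were called in every fit that left out a library. Mt-atp6, a subunit of ATP synthase, had 273 and 305 CPM in YFP and 860 and 768 CPM in S280D (1.49 ± 0.16, adjusted p = 7.02e-04). Mt-co1, the catalytic subunit of cytochrome oxidase, went from 2344 and 2869 CPM to 6596 and 6235 CPM (1.30 ± 0.17, adjusted p = 0.00101). The summed share of mitochondrially encoded transcripts was 0.506% and 0.604% of exon reads in YFP and 1.66% and 1.40% in S280D, with 1.37% and 1.17% in WT and 0.791% and 0.49% in S280A.

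Of 36 nuclear-encoded subunits tested, 3 rose (8.33%) and 21 fell (58.3%), with a median of -0.46. Their transcripts were short, with a median exon length of 856 bases beside 2314 for all genes tested. After removal of exon-length trends 3 rose and 17 fell (median -0.36), and with the robust curve 4 rose and 13 fell (median -0.305). Atp5a1, the alpha subunit of ATP synthase, fell from 422 and 431 CPM to 255 and 273 CPM (-0.69 ± 0.12, adjusted p = 0.00248). Ndufb7, a complex I subunit that is not among the 36 listed and was named for its small p, fell from 88.1 and 70.6 CPM to 40.3 and 40.1 CPM (-0.98 ± 0.14, adjusted p = 0.00125). Cyc1, cytochrome c1, had 81.9 and 85.4 CPM against 43.6 and 48.5 CPM (-0.86 ± 0.16, adjusted p = 0.00426, but 0.0509 without S280D replicate 1). The decreases of the list numbered 1 without S280D replicate 1, 6 without YFP replicate 1 and 4 with lane as a term, while the median stayed between -0.30 and -0.56 in these and the other single-library omissions of YFP and S280D.

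**Figure D3:**
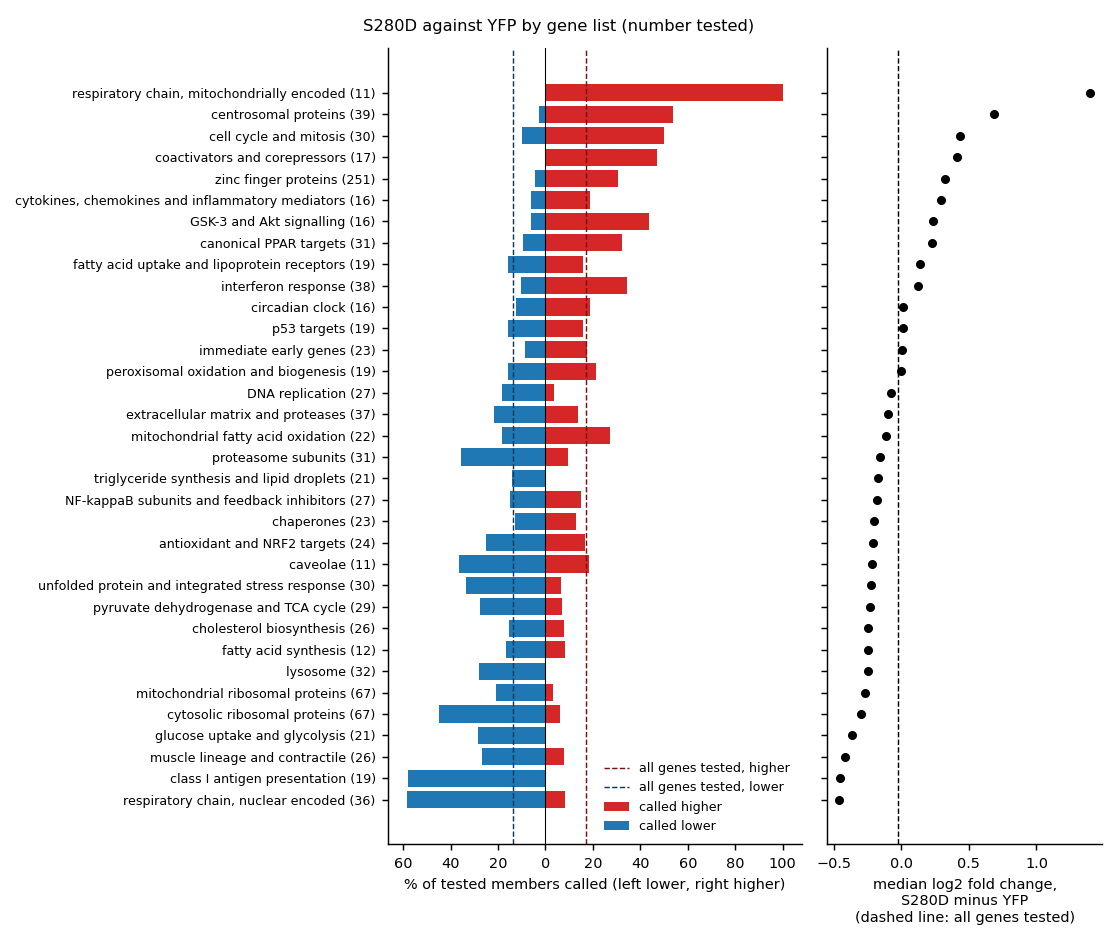
For each gene list with at least 10 tested members (number in brackets), bars give the percentage of tested members called lower (left, blue) and higher (right, red) in S280D, and the right panel the median log2 fold change, with dashed lines for all genes tested. Mitochondrially encoded transcripts, centrosomal proteins and the cell cycle and mitosis list stand to the right, and nuclear respiratory chain, class I presentation and cytosolic ribosomal genes to the left.

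Inflammatory genes were mostly at low level. Of 34 cytokines, chemokines and mediators, 16 were tested, 3 rose (18.8%, beside 17.1% of all genes tested) and 1 fell (6.25%, beside 13.7%). Ptgs2, the inducible cyclooxygenase, rose from 13.5 and 21.5 CPM to 58.3 and 50.2 CPM (1.63 ± 0.22, adjusted p = 9.61e-04) and was called in every fit tried other than a required fold of 1.5. Il6 had 7.38 and 6.49 CPM against 17.2 and 11.3 CPM (1.05 ± 0.22, adjusted p = 0.00678, but 0.095 without S280D replicate 1). Ccl2, a monocyte chemokine, was under 1 CPM in all 4 libraries (adjusted p = 0.0348, lost without YFP replicate 2 at 0.182 and without either S280D library). Icam1, an adhesion molecule, fell (-0.43, adjusted p = 0.0331), a call lost without any of the 4 libraries. Of 27 NF-kappaB subunits and inhibitors, 4 rose and 4 fell (14.8% each, near the shares of all genes tested). After removal of exon-length trends the counts were 2 and 5, and more of each were called without YFP replicate 2. None of either was called without S280D replicate 1.

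Interferon-response genes divided. Of 38 tested, 13 rose (34.2%) and 4 fell (10.5%), with a median of 0.13. After removal of exon-length trends 7 were higher and 6 lower, with a median of 0.02. Eif2ak2, the RNA-activated kinase PKR, rose from 255 and 313 CPM to 835 and 642 CPM (1.38 ± 0.17, adjusted p = 7.54e-04), and Ifit2 from 254 and 310 CPM to 775 and 660 CPM (1.35 ± 0.16, adjusted p = 7.54e-04). Tlr3, a sensor of double-stranded RNA, rose from 4.68 and 4.75 CPM to 12.96 and 13.1 CPM (1.46 ± 0.21, adjusted p = 0.00122). Ifi27 (-0.93), Bst2 (-0.67), Irf7 (-0.55) and Isg15 (-0.42) fell in the same libraries, and Mx1 (-0.03) and Ifit1 (0.09) were not called. The list counted 6 higher and 2 lower without S280D replicate 1, and 10 and 6 with a median of -0.04 without YFP replicate 2.

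In class I antigen presentation 0 of 19 genes rose and 11 fell (57.9%), with a median of -0.46. RT1-A1, a rat class I heavy chain, had 513 and 386 CPM in YFP and 272 and 276 CPM in S280D (-0.72 ± 0.15, adjusted p = 0.00644, but 0.0677 without S280D replicate 1). Psmb9, an inducible subunit of the immunoproteasome, had 104 and 82.8 CPM against 47.0 and 54.1 CPM (-0.88 ± 0.17, adjusted p = 0.00473, but 0.06 without S280D replicate 1). B2m, the shared light chain, was not called (0.16, adjusted p = 0.442). The 11 decreases became 0 without S280D replicate 1, 2 without YFP replicate 1 and 3 with lane as a term, with medians of -0.35, -0.35 and -0.45. Class I genes are near-identical copies, and 28.4% of RT1-A1 reads were placed at a single site.

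Genes of the cell cycle and of mitosis were counted as 1 list. Of 30 tested, 15 rose (50%) and 3 fell (10%), with a median of 0.43. After removal of exon-length trends 13 rose and 3 fell (median 0.36). Cenpe, a kinetochore motor, went from 7.09 and 9.35 CPM to 45.6 and 28.3 CPM (2.17 ± 0.24, adjusted p = 7.02e-04), and Mki67, a marker of dividing cells, from 22.1 and 32.2 CPM to 124 and 82.9 CPM (1.93 ± 0.28, adjusted p = 0.00139). Cdk6, a kinase of the G1 phase, rose from 43.8 and 43.7 CPM to 95.0 and 82.6 CPM (1.02 ± 0.12, adjusted p = 7.54e-04). Other mitotic genes were not called, among them Cdk1 (-0.12), Plk1 (-0.15), Aurkb (0.05) and Cdc20 (-0.01), and Ccnd1, Ccnd3 and Cdk4 were called lower. Cenpe, Kif20b and Mki67, with exons totalling 7621, 5468 and 9880 bases, are long transcripts. DNA replication genes had 1 higher (3.7%) and 5 lower (18.5%) of 27. Cell cycle counts were 8 higher and 0 lower without S280D replicate 1, and replication counts 0 of either.

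Centrosomal proteins had the highest median of the nuclear-encoded lists, 0.69, with 21 higher (53.8%) and 1 lower (2.56%) of 39 tested. After removal of exon-length trends 18 were higher and 4 lower, with a median of 0.50. Cep126 rose from 1.35 and 1.48 CPM to 5.87 and 6.10 CPM (2.07 ± 0.27, adjusted p = 8.45e-04), and Pcm1, the scaffold of centriolar satellites, from 18.9 and 21.6 CPM to 65.4 and 44.5 CPM (1.44 ± 0.23, adjusted p = 0.00188). Of 251 zinc finger genes, 77 rose (30.7%) and 11 fell (4.38%), and 68 and 30 after removal of exon-length trends. Zfp281 rose from 20.8 and 20.4 CPM to 68.8 and 50.6 CPM (1.54 ± 0.18, adjusted p = 7.54e-04). Centrosomal genes counted 6 higher and 0 lower and zinc finger genes 31 and 0 without S280D replicate 1.

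Of 67 cytosolic ribosomal protein genes, 4 rose (5.97%) and 30 fell (44.8%), with a median of -0.30. After removal of exon-length trends 7 rose and 21 fell (median -0.22), and with the robust curve 8 rose and 18 fell (median -0.16). Rpl13a fell from 956 and 906 CPM to 545 and 527 CPM (-0.80 ± 0.13, adjusted p = 0.00224), and on its uniquely placed reads, 34.6% of the total, by 1.19. These genes have many processed copies in the genome, and on uniquely placed reads the list counted 7 higher and 17 lower. Mitochondrial ribosomal proteins had 2 higher (2.99%) and 14 lower (20.9%) of 67 (4 and 13 after removal of exon-length trends, 5 and 10 with the robust curve). Mrps22 was an exception that rose from 13.2 and 14.5 CPM to 26.4 and 30.6 CPM (1.04 ± 0.18, adjusted p = 0.00297). Proteasome subunits had 3 higher (9.68%) and 11 lower (35.5%) of 31 (3 and 11 after removal of exon-length trends, 3 and 6 with the robust curve). Lysosomal genes had 0 higher and 9 lower (28.1%) of 32 (0 and 12, and 0 and 10, in the same order). Without S280D replicate 1 the decreases numbered 2, 0, 2 and 0 in these 4 lists, and without YFP replicate 1 they numbered 10, 3, 3 and 3.

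Stress pathways gave mixed counts. Of 30 genes of the unfolded protein and integrated stress responses, 2 rose (6.67%) and 10 fell (33.3%). The increases were Slc7a11, the cystine transporter (33.1 and 35.3 CPM to 126.6 and 86.1 CPM, 1.64 ± 0.20, adjusted p = 7.54e-04), and Dnajb9, an endoplasmic reticulum chaperone (1.11 ± 0.23, adjusted p = 0.00594). Atf4, the transcription factor of the integrated stress response, had 956 and 1101 CPM against 687 and 706 CPM (-0.56, adjusted p = 0.00625, but 0.0815 without S280D replicate 1). Antioxidant genes had 4 higher (16.7%) and 6 lower (25%) of 24. More decreases were called without YFP replicate 2, and fewer genes of each direction without S280D replicate 1. Gpx4, which reduces lipid peroxides, fell from 126 and 109 CPM to 55.0 and 59.96 CPM (-1.03 ± 0.18, adjusted p = 0.00308), though 15.7% of its reads were placed at a single site. Chaperones (3 higher, 3 lower of 23, but 2 and 6 after removal of exon-length trends), p53 targets (3 and 3 of 19) and immediate early genes (4 and 2 of 23) had shares near those of all genes. The stress-response list counted 2 higher and 0 lower without S280D replicate 1.

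Matrix and muscle genes were tested beside the markers of fibroblasts and smooth muscle. Of 37 matrix genes, 5 rose (13.5%) and 8 fell (21.6%), and 1 and 15 after removal of exon-length trends. Eln, elastin, had 9661 and 13768 CPM in YFP and 5928 and 7164 CPM in S280D (-0.84 ± 0.20, adjusted p = 0.00978, but 0.109 without S280D replicate 1), and Lox, which cross-links elastin and collagen, rose from 713 and 920 CPM to 1487 and 1424 CPM (0.83 ± 0.15, adjusted p = 0.00357). Of 26 muscle genes tested, 2 rose (7.69%) and 7 fell (26.9%). Mef2a, a muscle transcription factor, rose from 48.3 and 53.5 CPM to 150.0 and 117.0 CPM (1.39 ± 0.20, adjusted p = 0.00117), and Tagln, an actin-binding protein of smooth muscle, had 2850 and 2577 CPM against 1776 and 1920 CPM (-0.55, adjusted p = 0.00909, but 0.131 without S280D replicate 1). Summed fibroblast markers were 58410 and 67480 CPM in YFP and 46600 and 50100 CPM in S280D (1 of 7 tested higher, 2 lower), and smooth muscle markers 14610 and 12400 CPM against 8810 and 10060 CPM (0 of 5 higher, 3 lower). In such bulk samples fewer cells of a type and less RNA per cell cannot be told apart. Matrix genes counted 2 higher and 0 lower, and muscle genes 1 and 0, without S280D replicate 1.

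Of 11 caveolar genes tested, Cav2 and Murc rose (18.2%) and 4 fell (36.4%), and 1 rose and 6 fell after removal of exon-length trends. Ptrf, known as cavin-1, had 850 and 864 CPM in YFP and 530 and 576 CPM in S280D (-0.63 ± 0.11, adjusted p = 0.0033, but 0.0635 without S280D replicate 1), opposite in direction to Cav2. Ehd2 (-0.61), Pacsin3 (-0.63) and Prkcdbp (-0.67) fell as well, and none of the 4 decreases was called without S280D replicate 1. Of 16 clock genes, 3 rose (18.8%) and 2 fell (12.5%), near the shares of all genes tested, and 3 and 4 after removal of exon-length trends. Clock itself went from 8.67 and 14.1 CPM to 33.4 and 27.4 CPM (1.41 ± 0.24, adjusted p = 0.00247).

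Outside the lists, 1 of the 12 largest increases among genes with a mean of at least 1 CPM and calls on both kinds of read was in Slc18a2, the vesicular monoamine transporter, at 0.293 and 0.92 CPM in YFP and 5.87 and 4.92 CPM in S280D (3.11 ± 0.42, adjusted p = 0.00105). It ranged from 2.55 to 4.18 when single libraries were left out. Trove2, the Ro60 RNA-binding protein, had 0.41 and 0.409 CPM against 5.32 and 3.14 CPM (3.37 ± 0.67, adjusted p = 0.00514). Others of the 12, Ccdc138, Zfp51, Giot1, Zfp120, Fsd1l and Tmprss11a, rose by between 2.82 and 2.99 on the log2 scale from under 1 CPM in YFP. With single libraries left out Zfp120 ranged from 2.12 to 3.95, Zfp51 from 2.26 to 4.14 and Ccdc138 from 2.46 to 3.60, and Zfp120 was not called without S280D replicate 1 (adjusted p = 0.0703). After Ppara and Cav2 the smallest p values among increases belonged to Denr, a translation reinitiation factor (75.5 and 65.5 CPM to 270.9 and 305.2 CPM, 2.03 ± 0.18, adjusted p = 4.23e-04), and Vps13a, a lipid transfer protein (11.01 and 11.2 CPM to 71.5 and 48.6 CPM, 2.44 ± 0.21, adjusted p = 4.23e-04). Manea and Samd9l followed, with log2 fold changes of 2.00 and 2.40.

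The largest decreases chosen in the same way were smaller in size. Rps2-ps6, a copy of a ribosomal protein gene, fell from 64.4 and 55.1 CPM to 23.3 and 23.1 CPM (-1.36 ± 0.15, adjusted p = 7.02e-04), with 9.13% of reads placed at a single site. Trex1, the exonuclease that clears cytosolic DNA, fell from 98.9 and 87.6 CPM to 36.1 and 41.8 CPM (-1.26 ± 0.23, adjusted p = 0.00336), and Ly6e, an interferon-induced surface protein, from 38.0 and 29.1 CPM to 14.2 and 12.7 CPM (-1.31 ± 0.21, adjusted p = 0.00209). Polr2f, a subunit shared by the RNA polymerases, fell from 36.1 and 38.8 CPM to 17.3 and 17.3 CPM (-1.12 ± 0.15, adjusted p = 0.00105). These 4 decreases were called in every fit tried other than a required fold of 1.5. Ubtd1, Tp53i13 and Isca2 fell by 1.09, 1.07 and 1.06 and held likewise. Ldoc1 (-1.30), RT1-CE2 (-1.31), Bloc1s3 (-1.17), Fam109a (-1.16) and Cox6a2 (-1.11) each lost the call without 1 or more libraries; the highest adjusted p under such an omission was 0.202, 0.0508, 0.0896, 0.0998 and 0.139.

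Set against the other receptor forms, few genes were called between S280D and WT and many between S280D and S280A, though whether these counts differ was not tested. Of the genes tested, 5 of 12407 genes (0.0403%) were called between S280D and WT by edgeR's quasi-likelihood test, all lower in S280D, while 606 had an unadjusted p under 0.05. Between S280D and S280A 4873 genes (39.3%) were called, 2641 higher (21.3%) and 2232 lower (18%) in S280D. These contrasts share the S280D libraries with the comparison to YFP. Expression in the WT libraries followed exon length in the same direction as in S280D, and in the S280A libraries in the opposite one (values below). Without S280D replicate 1, 1330 genes were called against S280A, and without S280A replicate 2, 1254. The number called against WT ranged from 0 without S280D replicate 2 to 13 without either YFP library.

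The 5 genes lower in S280D than in WT were as follows. Cxcl1, a neutrophil chemokine, had 8.40 and 10.7 CPM in WT and 0.943 and 0.501 CPM in S280D (-3.65 ± 0.41, adjusted p = 0.0107), with 0.351 and 0.358 CPM in YFP. Nfkbiz, an inducible NF-kappaB cofactor, had 8.40 and 9.36 CPM in WT against 1.64 and 1.37 CPM in S280D (-2.54 ± 0.33, adjusted p = 0.0276). Zc3h12a, an RNase that degrades cytokine mRNAs, had 35.1 and 42.3 CPM against 7.59 and 6.60 CPM (-2.44 ± 0.23, adjusted p = 0.00483). Against YFP these 3 were not called in S280D, with differences of 1.08, 0.90 and -0.26 (adjusted p of 0.153, 0.104 and 0.43). Gbp5, an interferon-induced GTPase, had 35.6 and 43.0 CPM in WT, 15.2 and 12.2 CPM in S280D and 8.26 and 6.85 CPM in YFP, so that it lay below WT (-1.52, adjusted p = 0.0133) and above YFP (0.86 ± 0.19, adjusted p = 0.00765, but 0.0843 without S280D replicate 1). RT1-CE2, a class I gene, had 9.85 and 9.77 CPM in WT, 2.90 and 2.28 CPM in S280D and 7.61 and 5.47 CPM in YFP, below both (-1.90 and -1.31). Their promoters are shown for Cxcl1, Nfkbiz and Gbp5 because each holds a kappaB-like decamer. They were picked for that match, and no such decamer was found for RT1-CE2 or Zc3h12a.

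**Figure D4:**
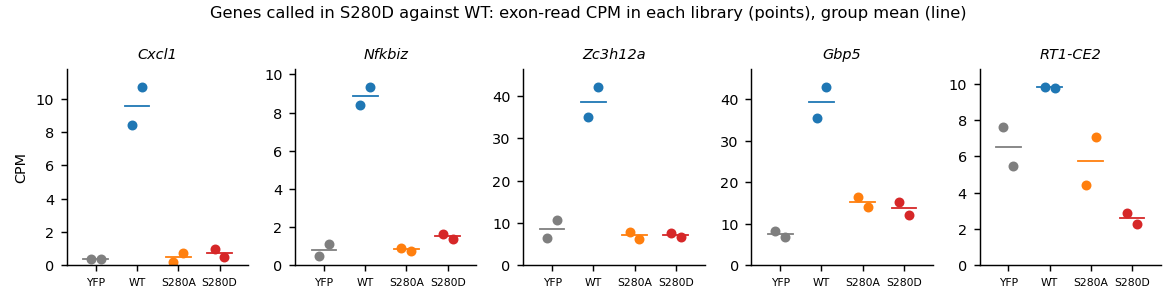
Points are the CPM of the 2 libraries of each group (y axis, starting at 0) and lines the group means, for the 5 genes called between S280D and WT. In Cxcl1, Nfkbiz and Zc3h12a the S280D libraries sit beside YFP and S280A and far below WT; Gbp5 lies between YFP and WT, and RT1-CE2 below both.

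The search used 8 forms, GGGAATTTCC, GGGACTTTCC, GGGGATTTCC, GGGAAATTCC, GGGGAATTCC, GGGAACTTCC, GGGGACTTCC and GGGAAGTTCC, on both strands, and 0.909% of the 9018 matched promoters held at least 1. Matches are in capitals in RefSeq's windows of 300 bases on GRCr8: chr14:17479272-17479571 (minus strand) for Cxcl1, with matches at -84 and -83 that overlap, chr11:58251471-58251770 (plus) for Nfkbiz, with 1 at -13, and chr2:233910749-233911048 (plus) for Gbp5, with matches at -94 and 33.
Cxcl1: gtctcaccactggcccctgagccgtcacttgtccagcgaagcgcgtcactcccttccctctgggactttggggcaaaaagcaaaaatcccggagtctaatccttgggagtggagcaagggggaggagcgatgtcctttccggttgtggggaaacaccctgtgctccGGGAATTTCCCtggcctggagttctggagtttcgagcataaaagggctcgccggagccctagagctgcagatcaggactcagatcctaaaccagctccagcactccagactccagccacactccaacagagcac
Nfkbiz: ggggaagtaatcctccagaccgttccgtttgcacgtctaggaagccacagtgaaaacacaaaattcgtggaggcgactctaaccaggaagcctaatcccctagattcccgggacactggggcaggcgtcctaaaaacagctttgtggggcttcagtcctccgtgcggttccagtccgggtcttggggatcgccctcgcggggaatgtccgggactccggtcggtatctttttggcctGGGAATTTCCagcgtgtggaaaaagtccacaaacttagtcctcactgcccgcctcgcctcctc
Gbp5: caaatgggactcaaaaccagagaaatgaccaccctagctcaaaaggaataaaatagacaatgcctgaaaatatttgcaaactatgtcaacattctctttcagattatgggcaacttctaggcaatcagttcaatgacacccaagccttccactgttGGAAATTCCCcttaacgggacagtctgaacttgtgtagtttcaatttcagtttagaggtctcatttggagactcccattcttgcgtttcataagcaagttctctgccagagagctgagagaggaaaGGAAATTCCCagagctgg
The decamers are a description of these windows; binding was not measured.

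Reads in introns, which come mostly from unspliced RNA, gave a second measure of the same comparison. They made up 11% and 11.9% of reads in YFP and 14.4% and 15.1% in S280D. Of 12988 features tested on intron reads, 695 (5.35%) were called, 313 higher (2.41%) and 382 lower (2.94%). Among 9892 genes tested on both, the 1868 called higher on exons had a median intron difference of 0.50, and 1571 were positive; 165 were called higher and 14 lower on introns. The 1431 genes called lower on exons had a median intron difference of -0.36, and 1139 were negative, with 110 called lower and 2 higher. The median over all these genes was 0.02. Samd9l (1.63, adjusted p = 0.0055), Rsad2 (1.24, adjusted p = 0.0098) and Mki67 (1.51, adjusted p = 0.02) were among the named genes called on introns in the exon direction. Angptl4 (1.48, adjusted p = 0.16) and Gsk3b (-0.11, adjusted p = 0.79) were not called on introns. Without S280D replicate 1 the intron calls numbered 33, and without YFP replicate 1 they numbered 64.

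Exon length moved with the result. Genes called higher had a median exon length of 3168 bases and genes called lower 1911, beside 2314 for all genes tested. In the shortest of 10 bins of genes the median log2 fold change was -0.22, with 7.09% called higher and 19.7% lower, and in the longest bin it was 0.26, with 33.5% higher and 4.35% lower. Across genes, the rank correlation of centred expression with exon length was -0.247 and -0.0648 in the YFP libraries and 0.238 and 0.211 in S280D. It was 0.129 and 0.158 in the WT libraries and -0.14 and -0.232 in the S280A libraries. When each library's trend with exon length was removed, 4363 genes were called, 1784 higher and 2579 lower (40.9% higher, beside 55.5% in the fit reported above), and the median of all genes moved from -0.02 to -0.13. A curve less sensitive to outlying genes gave 1971 higher and 1980 lower with a median of -0.06. After the first curve the medians of all 10 bins lay between -0.09 and -0.15, a shift common to genes of every length, and counts after removal of exon-length trends include it. Of the original calls, 3317 and 3271 of 3815 kept their direction and call under the 2 curves. With the first curve, 5 genes were called between S280D and WT and 5331 between S280D and S280A. The part of exon length in the calls of any of these comparisons was not tested further.

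**Figure D5:**
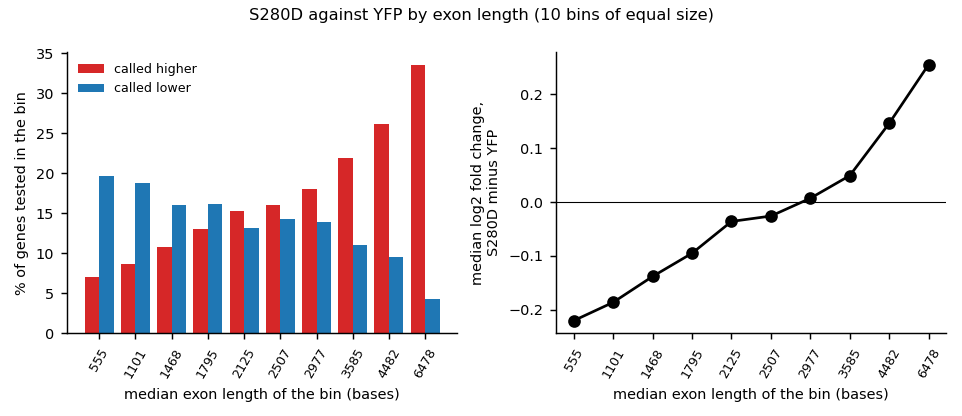
Genes tested were divided by exon length into 10 bins of equal size, whose median length in bases is on the x axis. Left, bars give the percentage of genes in each bin called higher (red) and lower (blue) in S280D; right, points give the median log2 fold change, which runs from -0.22 in the shortest bin to 0.26 in the longest.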

How the data were processed

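Poly(A) RNA of transduced H9C2 cells was sequenced in 8 libraries, 2 per group. The deposited table holds whole-number counts of reads per gene and library, over exons (all reads, and those placed at a single site) and over introns, made by the authors on the rat build Rnor_6.0, per the submitters' processing notes; no aligner or counter is named in the labels used. The authors' deposited table also gives a signed fold change and an FDR-adjusted p-value for the comparison, which were used only for the overlap of calls. Exon counts were fitted with edgeR 4.0.16 (filterByExpr, TMM, quasi-likelihood test), all 8 libraries together with 1 coefficient per group, and Benjamini-Hochberg adjustment over the 12407 genes tested at 0.05. Standard errors (SE) were derived from the fitted log2 change and its F statistic. Intron counts were fitted alike.

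Named genes were Ppara, the 12 largest changes and 6 smallest p-values in each direction (called on total and unique reads, mean of at least 1 CPM, groups apart), up to 4 called members per list, all called members of the receptor, PPAR target, fatty acid uptake and oxidation lists, and genes called against WT; others were named after their values were seen. The members and lists were chosen with earlier results of these data known. Exon-length trends were removed as library-specific loess offsets, the robust curve being added after seeing the data. DESeq2 1.42.0, other scalings and filters, lane, a replicate block and omission of each library were tried. In a simulation based on these libraries, few of the 12407 genes were changed and no exon-length trend was added. There 25% of 1.5-fold, 75% of 2-fold and 100% of 4-fold increases were recovered. Far more genes were called in the data, so these rates do not give the recovery there. Some members of the lists, counted in the totals, are not reported here by name.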

Additional observations from a re-analysis of the deposited data

Results flagged for a closer look

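The 5 genes called between S280D and WT are listed because the effects of the 2 receptor forms against the same YFP libraries differed by a direct test, edgeR's quasi-likelihood test with Benjamini-Hochberg adjustment. The log2 difference (S280D minus WT) was -3.65 for Cxcl1 (adjusted p = 0.0107), -2.54 for Nfkbiz (adjusted p = 0.0276), -2.44 for Zc3h12a (adjusted p = 0.00483), -1.90 for RT1-CE2 (adjusted p = 0.048) and -1.52 for Gbp5 (adjusted p = 0.0133), and both S280D libraries lay below both WT libraries in each. The same test between S280D and S280A called 4873 genes.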

How the results depend on the processing

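Of the 3815 genes called between S280D and YFP, 566 passed a required fold of 1.5 (537 of 2116 higher, 29 of 1699 lower) and lane as a term gave 1654 (1279 higher, 375 lower). The exon-length offset gave 2579 lower. Omission of single libraries gave 917 to 4152 calls, 777 to 2292 higher and 140 to 1905 lower, the fewest without S280D replicate 1. Against WT (5 genes) there were 129 with no filter on low counts, 39 with DESeq2, 33 with only the 4 libraries compared, 3 with the replicate block, 2 at a fold of 1.5, 1 with lane, and 0 to 13 under omissions. Against S280A (4873) a fold of 1.5 left 733 and omissions 1254 to 5223. On introns (695) there were 1336 with no filter, 39 at a fold of 1.5, 74 with lane and 33 to 1210 under omissions. The cause was not tested. A replicate block gave 3398 calls against YFP; deviations of same-numbered libraries correlated at -0.144 between YFP and S280D and from -0.173 to 0.205 over all pairs of groups, and the labels name nothing shared under a number, so the numbers were not taken to pair the samples. Groups left with 1 library were assumed to vary like the others. No named gene reversed. Most named genes were called, with the groups wholly apart, so a reversal on omission of a library was hardly possible.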
